A study of Homo sapiens with 8 samples.

Results

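Oxidative phosphorylation was followed through 99 genes of the 18133 in the table, taken by gene symbol. They were the genes named as subunits of NADH dehydrogenase (complex I), succinate dehydrogenase (complex II), the cytochrome bc1 complex (complex III), cytochrome c oxidase (complex IV) and ATP synthase (complex V), cytochrome c itself, and the protein-coding genes of the mitochondrial genome, with a mean of at least 10 normalized counts over 8 libraries. Of 108 symbols that matched, 9 fell under that mean. The highest of those was the pseudogene ATP5F1AP10 at a mean of 4.38, and the lowest genes kept were NDUFA6 at 11.6 and COX6B2 at 11.9. NDUFA6 is a subunit that respiring cells in general need, and how transcripts were summed to genes is not stated, so that its level is uncertain. Of the 99, 81 were nuclear subunit genes, 13 were mitochondrially encoded, and 5 were copies or a read-through transcript that share sequence with a subunit gene (COX5BP6, COX6CP13, UQCRFS1P1, UQCRHL and ATP5MF-PTCD1).

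The cells were DND41, an established human line of T cell acute lymphoblastic leukemia, kept in RPMI with serum and given doxycycline for 72 h, which switched on a short hairpin RNA in every group, the controls included. Against SIRT1, a NAD-dependent deacetylase, 3 libraries carried the construct sh1 and 3 the construct sh3, and 2 libraries carried the control hairpin shC. What sh1 and sh3 target within SIRT1, and whether a construct stands for 1 clone or a pool, is not given in the labels. The cells were plated in triplicate and are not stated to be separate cultures, so that the p-values measure the spread between these libraries, which may be technical.

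SIRT1 RNA was 1832 ± 123 normalized counts (SD, n = 2) in shC, 1300 ± 36.5 (n = 3) in sh1 and 1165 ± 60.1 (n = 3) in sh3, lower in all 6 SIRT1 libraries than in both controls. Its change was -0.49 with sh1 (adjusted p = 0.0029, limma, and 0.0506 without shC C) and -0.65 with sh3 (adjusted p = 0.000144, limma). Totals per library lay between 33087820 and 34072666 normalized counts. The labels of sh3 library C disagree: its title and genotype give a SIRT1 hairpin, its description the control hairpin. Its values followed the other sh3 libraries, with a Spearman correlation across genes of at least 0.9955 with them and at most 0.9925 with the controls, and it was analysed as sh3. T lineage markers were present, 8 of 10 listed, with CD2 low, and CD5 and PTCRA were not analysed here. Their summed level was 77730 to 80820 in shC, 66743 to 68297 in sh1 and 55390 to 56794 in sh3. Of 12 markers of other cells, 10 were found. Of these, PECAM1 lay at 514 to 806, and 8 others were at most 34.6 in any library.

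In the respiratory chain, complexes I and II pass electrons to coenzyme Q, complex III passes them to the small soluble protein cytochrome c, and complex IV hands them to oxygen. Complexes I, III and IV pump protons across the inner mitochondrial membrane, and complex V uses their return to make ATP. Every complex except complex II is built from subunits of both genomes: the mitochondrial genome encodes a few core membrane subunits, and nuclear genes encode the rest.

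With sh3, 18 of the 99 genes were lower and 1 was higher than in shC, where 9.19% of all 13885 genes tested were called lower and 9.36% higher. A call is an adjusted p under 0.05 in a limma model on log2(normalized count + 1), with Benjamini-Hochberg adjustment over all genes tested. The median change of the 99 was -0.12 on the log2 scale, against 0.00 for all genes tested, and 74 of the 99 estimates were below 0. The 18 changes lay between -0.51 and -0.16, and the largest was that of CYCS, the gene for cytochrome c. With sh1, no gene of the 99 was called lower and 1, SDHA, was called higher, where 3.43% of all genes were lower and 2.88% higher. At an unadjusted limma p under 0.05, 11 of the 99 were lower with sh1, as were 1541 of all 13885 genes tested. These shares were similar. The median change with sh1 was -0.08. That median was -0.01 without library sh1 A and between -0.13 and -0.06 without any other single library of the comparison. With sh3 it lay between -0.12 and -0.10 in the same way. In bulk RNA, fewer cells of a type and less RNA per cell cannot be told apart, and the fall of the T lineage markers ran alongside these changes: 8 of 8 tested were called lower with sh3 and 6 with sh1. Their part in the results was not tested.

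**Figure D1:**
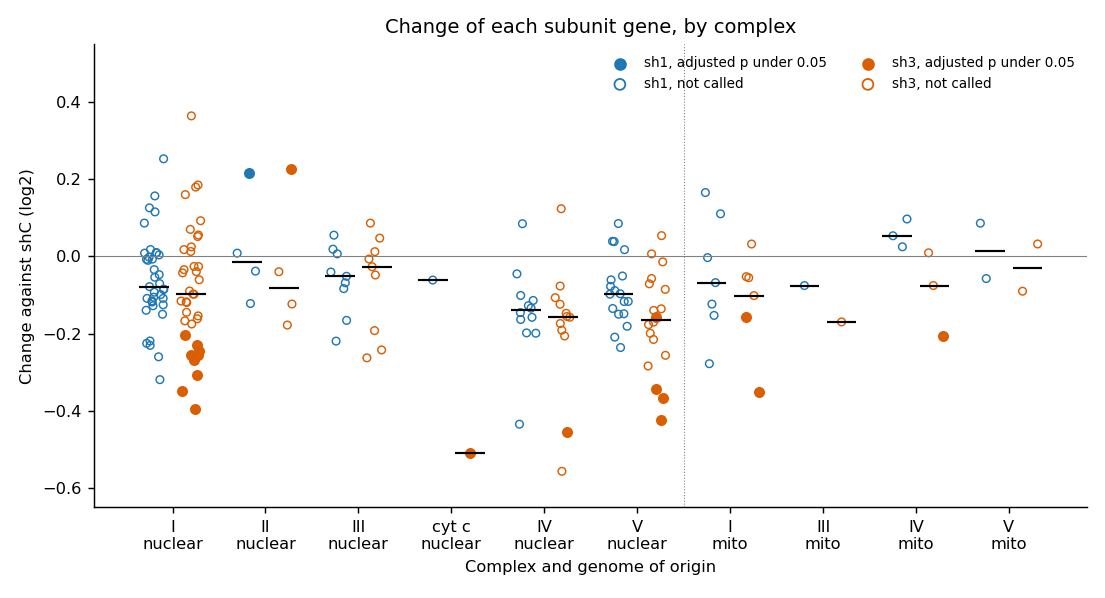
Change of the 94 subunit genes against shC on the log2 scale, by complex and genome of origin, for sh1 (blue) and sh3 (orange). Each point is a gene, filled where the adjusted p was under 0.05, and black bars are medians. Filled sh3 points lie below 0 in complexes I, IV and V and for cytochrome c, and the filled point of complex II, SDHA, lies above 0 with both hairpins.

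CYCS lies on chromosome 7 (chr7:25120091-25125361, minus strand). Its level was 9584 and 10679 normalized counts in the 2 shC libraries, 9016, 10304 and 9808 in sh1, and 7314, 6784 and 7247 in sh3. All 3 sh3 libraries lay below every other library, while the sh1 and shC libraries overlapped. The sh3 change was -0.51 ± 0.066 (SE) on the log2 scale (adjusted p = 0.000492, limma), a level 1.42-fold lower, and the sh1 change was -0.06. The difference between the hairpins was itself called, with sh1 higher than sh3 by 0.45 ± 0.059 on the log2 scale (adjusted p = 0.000586, limma). Both CYCS calls were made in each of the 20 alternative settings run, with sh3 changes between -0.59 and -0.43. CYC1, the heme-bearing cytochrome of complex III that reduces cytochrome c, had an sh3 change of 0.09 with an adjusted p of 0.286.

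SDHA moved the other way. It encodes the flavoprotein of complex II, the subunit that oxidizes succinate (chr5:218241-256700, plus strand). Its level was 5692 and 5346 in shC, 6441, 6423 and 6346 in sh1, and 6393, 6705 and 6257 in sh3, so that all 6 SIRT1 libraries lay above both controls. The changes were 0.22 ± 0.049 with sh1 (adjusted p = 0.0277, limma) and 0.23 ± 0.049 with sh3 (adjusted p = 0.00938, limma). Without shC C these adjusted p-values rose to 0.214 and 0.108. SDHB, the iron-sulfur subunit, and SDHC and SDHD, the membrane anchors, were not called, with sh3 changes of -0.12, -0.18 and -0.04. Reads can be shared with the SDHA pseudogenes. In shC, SDHAP1 averaged 1758 normalized counts, SDHAP3 542 and SDHAP2 49.7. In that order their changes were 0.10, 0.02 and 0.11 with sh1 and 0.02, -0.19 and -0.04 with sh3, none of them called in limma.

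Many nuclear respiratory genes are known to carry sites for the factors NRF1 and GABP, an ETS factor, near their start. The 250 bases before the annotated start of 67 of the 81 nuclear genes could be read from RefSeq (GRCh38.p14), as 80 windows. Shown are the windows of CYCS and SDHA, which moved in opposite directions, and of NDUFA13 and NDUFB10, 2 complex I genes that fell with sh3. Each is written 5′ to 3′ on the gene's own strand, with matches to the NRF1 core GCGCANGC or the ETS core CCGGAAG, on either strand, in capitals.
CYCS: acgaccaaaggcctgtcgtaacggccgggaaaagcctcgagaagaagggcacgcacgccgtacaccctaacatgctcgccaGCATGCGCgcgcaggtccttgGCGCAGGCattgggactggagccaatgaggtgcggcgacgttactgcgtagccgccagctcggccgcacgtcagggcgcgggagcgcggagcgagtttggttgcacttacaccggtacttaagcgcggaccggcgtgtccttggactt
SDHA: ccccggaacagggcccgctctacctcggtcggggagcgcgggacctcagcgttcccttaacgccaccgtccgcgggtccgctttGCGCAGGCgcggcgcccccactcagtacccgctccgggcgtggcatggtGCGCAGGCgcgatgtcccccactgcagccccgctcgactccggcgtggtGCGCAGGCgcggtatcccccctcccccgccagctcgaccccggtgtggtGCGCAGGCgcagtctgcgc
NDUFA13: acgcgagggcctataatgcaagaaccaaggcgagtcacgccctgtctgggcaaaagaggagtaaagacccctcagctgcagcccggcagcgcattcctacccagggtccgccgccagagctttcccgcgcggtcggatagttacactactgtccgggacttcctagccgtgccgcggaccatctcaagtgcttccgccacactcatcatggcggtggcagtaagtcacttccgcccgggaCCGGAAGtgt
NDUFB10: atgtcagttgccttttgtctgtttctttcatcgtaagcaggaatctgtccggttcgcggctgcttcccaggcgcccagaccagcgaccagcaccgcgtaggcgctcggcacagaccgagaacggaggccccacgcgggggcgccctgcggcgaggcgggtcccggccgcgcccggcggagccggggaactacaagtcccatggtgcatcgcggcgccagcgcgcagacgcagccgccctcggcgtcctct
These windows lie at chr7:25125261-25125510, chr5:218070-218319, chr19:19515975-19516224 and chr16:1959288-1959537. The CYCS window held 2 NRF1 cores and the SDHA window 4, the latter in similar repeats. The NDUFA13 window held 1 ETS core, and the NDUFB10 window held neither core. Over the 80 windows of nuclear subunit genes, 38.8% held an NRF1 core, against 16.5% of the windows of all genes tested and 10.4% of all 35116 RefSeq windows. An ETS core was in 23.8% of the subunit windows, against 14% and 8.52%, and a YY1 core (AANATGGC) in 8.75%, against 4.09% and 3.86%. Of the 16 windows of genes that fell with sh3, 3 held an NRF1 core (18.8%), against 28 of the 64 other subunit windows (43.8%). An ETS core was in 4 of the 16 and 15 of the 64, and a YY1 core in 1 and 6. A gene can have more than 1 window: the 16 belong to 13 genes, and NDUFC1 alone gave 4 of the 64. These matches are a description of letters in the windows and were not tested.

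Complex I, the largest set, had the most genes that fell with sh3, 9 of its 37 nuclear members (24.3%). That compared with 22.2% of nuclear complex V genes and 9.19% of all genes tested. All 9 encode accessory subunits, which surround the catalytic core of the complex. NDUFB1 was 1229 and 1239 normalized counts in shC, 860, 980 and 1147 in sh1, and 910, 955 and 947 in sh3. Both controls lay above all 6 SIRT1 libraries, and the sh3 change was -0.40 ± 0.10 (adjusted p = 0.0202, limma). NDUFA13, which is also known as a cell death regulator, was 4913 and 5302 in shC, 3877, 4621 and 4593 in sh1 and 4191, 4236 and 4404 in sh3, and fell by 0.26 on the log2 scale with sh3. NDUFB10 was 2762 and 3082 in shC, 2268, 2565 and 2705 in sh1 and 2268, 2357 and 2454 in sh3. Its controls too lay above all SIRT1 libraries, and its sh3 change was -0.31 ± 0.079 (adjusted p = 0.0204, limma). The other complex I genes that fell with sh3 were NDUFA11 (-0.35), NDUFC2 (-0.27), NDUFB8 (-0.26), NDUFB7 (-0.24), NDUFS6 (-0.23) and NDUFB11 (-0.20).

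Of these 9 genes, 8 belong to the membrane arm of complex I, which pumps the protons, and NDUFS6 belongs to the matrix arm, which oxidizes NADH. Of the 20 nuclear membrane-arm genes, 8 were called lower with sh3, where 9.19% of all genes tested were. The median change of the 20 was -0.16. Among 16 matrix-arm genes, 1 was called lower, and the median change was -0.01. With sh1 the medians were -0.10 for the membrane arm and 0.01 for the matrix arm. This split of the subunits was made after their values had been seen and was not tested. None of the 7 nuclear core subunits, all in the matrix arm, was called in limma with either hairpin. At an unadjusted p under 0.05, 2 were higher with sh3 and 1 with sh1. The lowest of their sh3 changes was -0.12. In either direction, 4505 of all 13885 genes tested passed that unadjusted p with sh3 and 3101 with sh1. NDUFS1, which holds iron-sulfur clusters, had an sh3 change of 0.18 (adjusted p = 0.0522, limma). Median transcript length was 717 nucleotides (nt) for the membrane arm, 766 for the matrix arm and 930 for the core subunits. NDUFA4 is grouped with complex I by its symbol but is known as a complex IV subunit, and its sh3 change was -0.15 (adjusted p = 0.363, limma).

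Complex V had 4 of 18 nuclear genes lower with sh3 (22.2%), against 9.19% of all genes tested. The 4 were ATP5MF and ATP5MD, small subunits of the membrane part, and ATP5F1E and ATP5F1A, of the F1 part that makes ATP. ATP5MF was 4167 and 4708 normalized counts in shC, 3505, 4038 and 4212 in sh1, and 3283, 3160 and 3467 in sh3. Every sh3 library lay below every other library, and the change was -0.42 ± 0.081 (adjusted p = 0.00489, limma). ATP5MD was 3122 and 3098 in shC, 2375, 2817 and 3299 in sh1 and 2424, 2447 and 2359 in sh3. Its sh1 libraries ran from near the sh3 level to above both controls, and its sh3 change was -0.37 ± 0.10 (adjusted p = 0.0301, limma). ATP5F1E fell by 0.34 and ATP5F1A by 0.16 on the log2 scale with sh3. ATP5F1B, the catalytic beta subunit and per kb the most abundant nuclear member, had a change of 0.05 ± 0.051 with sh3. ATP5MF overlaps PTCD1 and their read-through transcript on the same strand, and NDUFC2 overlaps a read-through gene with KCTD14, so that their reads can be split. The read-through ATP5MF-PTCD1 averaged 248 normalized counts in shC, 317 in sh1 and 305 in sh3. It was not called, with changes of 0.35 with sh1 (adjusted p = 0.123, limma) and 0.29 with sh3 (adjusted p = 0.126, limma). Some members also overlap a gene on the opposite strand in their annotated span, such as NDUFB8 with HIF1AN and ATP5MD with TAF5. No source names the strand setting of the counting, and whether the transcripts of such pairs share sequence was not checked.

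With sh3, 9.19% of all genes tested were lower, and in complex IV 1 of 12 nuclear genes (8.33%) was, COX7A2L. Its product is known to join complexes III and IV into supercomplexes rather than to act as a plain subunit. COX7A2L was 3826 and 4154 normalized counts in shC, 3280, 3596 and 3822 in sh1, and 2834, 3214 and 2695 in sh3. The groups did not overlap, although sh1 C and shC A nearly met. The sh3 change was -0.46 ± 0.083 (adjusted p = 0.0038, limma), and sh1 lay above sh3 by 0.29 ± 0.074 (adjusted p = 0.0262, limma). COX6B2, a subunit known from testis, had the lowest estimate of complex IV, -0.56 with sh3, from 7.7 to 11.4 normalized counts against 14.8 and 15.4 in shC, and was not called (adjusted p = 0.419, limma). None of the 9 nuclear complex III genes was called with either hairpin in limma. At an unadjusted p under 0.05, 1 was lower with sh1, UQCRH (-0.22), and 3 with sh3, UQCR11 (-0.26), UQCRQ (-0.24) and UQCRH (-0.19). Among all 13885 genes tested, 1541 were lower at that threshold with sh1 and 2239 with sh3.

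**Figure D2:**
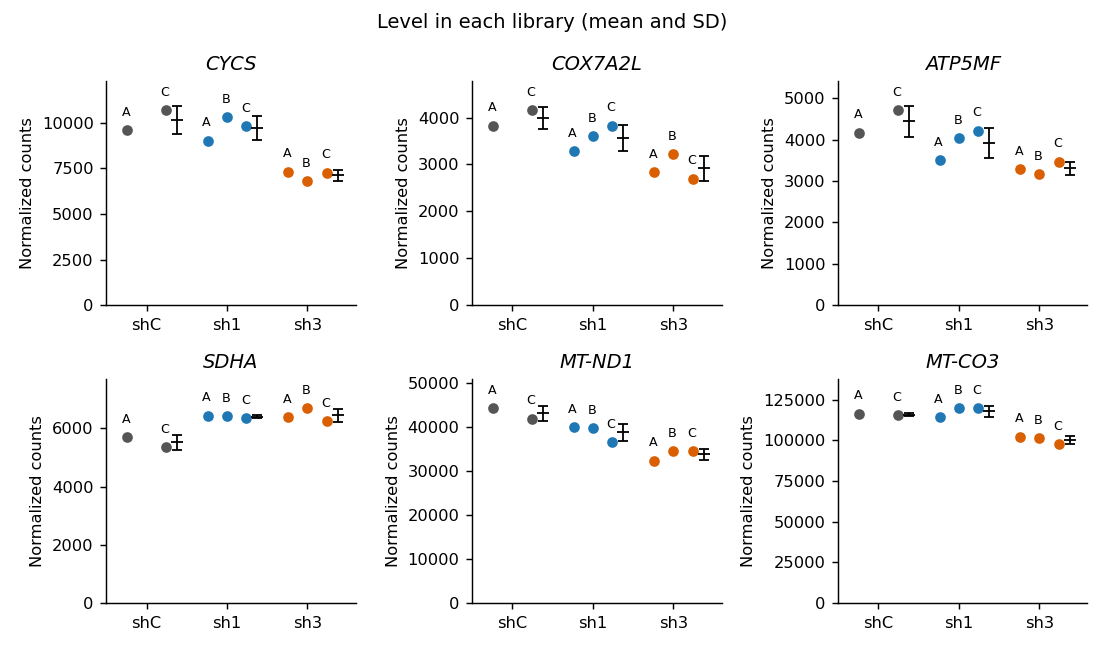
Normalized counts of 6 genes in each library, with the library letter above each point and the mean and SD of the group beside the points. For CYCS, COX7A2L, ATP5MF, MT-ND1 and MT-CO3, all 3 sh3 libraries lie below every other library, and for SDHA all 6 SIRT1 libraries lie above both controls.

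The 13 mitochondrially encoded genes took 2.71% to 3.07% of each library's normalized counts, and the 81 nuclear genes together took 0.869% to 1.01%. Per kb of transcript, the mitochondrial genes lay between 21814 and 201630 normalized counts per kb in shC, with a median of 70993, against a median of 4413 for the nuclear genes. MT-CO1, the catalytic subunit of complex IV, was highest at 201630 per kb. It was followed by the other complex IV genes MT-CO3 (147670) and MT-CO2 (140290), then by MT-ATP6 of complex V (119930). MT-ND5 (25540) and MT-ND6 (21814) were lowest. MT-ND6 (chrM:14149-14673) is the only one of the 13 encoded on the minus strand. MT-ATP8 and MT-ATP6 overlap, as do MT-ND4L and MT-ND4, and the members of each pair are not independent measurements. Of the 12 pairs of neighbours in this order, 5 overlapped in their shC libraries: MT-CO2 with MT-ATP6, MT-ND4L with MT-ND4, MT-ND4 with MT-ATP8, MT-ND2 with MT-CYB, and MT-ND5 with MT-ND6. Nuclear genes highest per kb in their complex were ATP5F1B (32032), COX7C (13650), UQCRH (11351), SDHC (10642) and NDUFV1 (9943). This ranking depends on the median length of the annotated transcripts, 460 nt for SDHC and 2009.5 nt for SDHA. Before division by length, SDHA was higher in shC, 5519 normalized counts against 4895 for SDHC.

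**Figure D3:**
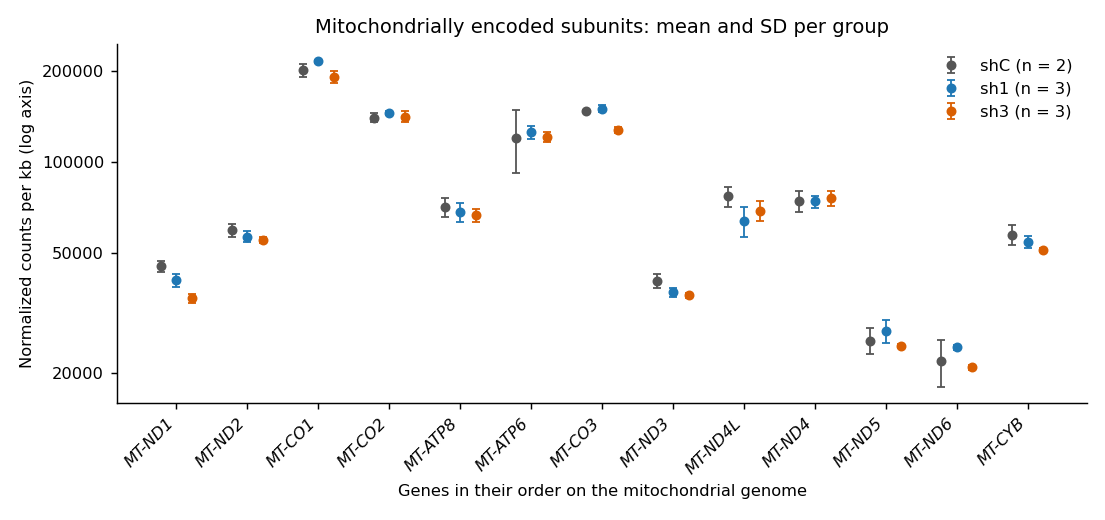
Level of the 13 mitochondrially encoded genes in normalized counts per kb (log axis), in their order on the mitochondrial genome, as mean and SD of the libraries of each group. MT-CO1 is highest and MT-ND6 lowest in all 3 groups, and sh3 lies lowest of the groups for MT-ND1 and MT-CO3.

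With sh3, 3 of the 13 mitochondrial genes were called lower, where 9.19% of all genes tested were. None was called in either direction with sh1. There, 3 of 13 were lower at an unadjusted limma p under 0.05, as were 1541 of all 13885 genes tested. MT-ND1 (chrM:3307-4262) encodes the complex I subunit next to the site where coenzyme Q binds. It was 44342 and 41848 normalized counts in shC, 39976, 39747 and 36600 in sh1, and 32362, 34445 and 34549 in sh3. The 3 groups did not overlap, in the order shC, sh1, sh3. Its sh3 change was -0.35 ± 0.053 (adjusted p = 0.00128, limma), between -0.39 and -0.26 in the 20 alternatives and called in each, and its sh1 change was -0.15 (adjusted p = 0.119, limma).

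MT-CO3 (chrM:9207-9990), a core subunit of complex IV, was 116308 and 115236 in shC, 114039, 119813 and 119550 in sh1, and 102113, 101319 and 97578 in sh3. The sh3 libraries lay below all others, while sh1 spanned the controls. Its sh3 change was -0.21 ± 0.045 (adjusted p = 0.00865, limma), which became -0.09 with quantile normalization (adjusted p = 0.152, limma). MT-ND3, a complex I subunit of the membrane arm, was 14478 and 13427 in shC, 12276, 13115 and 13016 in sh1 and 12421, 12791 and 12302 in sh3, with both controls above all SIRT1 libraries. Its sh3 change of -0.16 ± 0.050 (adjusted p = 0.0478, limma) was called in 7 of 20 alternatives. MT-ND4 (0.03), MT-CO2 (0.01) and the most variable gene in shC, MT-ATP6 (0.03), had sh3 changes near 0, and MT-CYB had -0.17 (adjusted p = 0.0549, limma). Summed over the 13 genes, the level was 986237 ± 64269 in shC (SD, n = 2), 1005440 ± 20591 in sh1 and 930644 ± 29909 in sh3 (n = 3 each), so that both SIRT1 groups differed from shC by less than the SD of the controls. The table also holds 35 nuclear copies of mitochondrial genes, 12 of them with a mean of at least 10, and reads can be shared with these.

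Direct comparison of the hairpins called 5 of the 99 genes higher in sh1 than in sh3, and none lower, where 5.61% of all genes were higher and 5.83% lower. At an unadjusted limma p under 0.05, 2 were lower, as were 1834 of all 13885 genes tested. Besides CYCS and COX7A2L, the 5 were MT-CO1 (0.17 ± 0.048), MT-CO3 (0.23 ± 0.040) and MT-ND1 (0.20 ± 0.048). MT-CO1 was 322185 and 299655 in shC, 331208, 335491 and 330071 in sh1, and 304133, 302435 and 278668 in sh3. The sh1 libraries lay above all others, and the controls overlapped sh3. Against shC the MT-CO1 changes were 0.10 with sh1 and -0.08 with sh3, neither of them called. The difference in MT-CO1 between the hairpins was called in 11 of 20 alternatives and came to 0.06 with quantile normalization (adjusted p = 0.5, limma).

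With the mean of both hairpins set against shC, 8 of the 99 genes were lower and 1 higher, where 6.19% of all genes were lower and 6.55% higher. The 8 were NDUFB1 (-0.36), COX7A2L (-0.31), ATP5MF (-0.30), CYCS (-0.28), NDUFC2 (-0.26), NDUFB10 (-0.26), MT-ND1 (-0.25) and NDUFA13 (-0.24), and the 1 higher was SDHA (0.22 ± 0.044, adjusted p = 0.00886, limma). For NDUFC2 the 2 hairpins had almost equal changes, -0.26 with sh1 (adjusted p = 0.079, limma) and -0.27 with sh3. The comparisons of sh1, of sh3 and of both with shC share the same 2 control libraries. Without shC C, 4 members were called lower with sh3 in place of 18, and of the 18 only CYCS and MT-ND1 were still called. Without shC A, 8 were called lower. The count fell to 5 without sh3 A, 6 without sh3 B and 11 without sh3 C. Shares of all genes called in these fits were not counted, so that the falls cannot be read as particular to the members.

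Of all libraries, sh1 A had the lowest nuclear members as a group. It was the lowest of the 8 libraries for 57 of the 81 nuclear genes (70.4%), against 13.3% of all genes tested, but for 1 of the 13 mitochondrial genes. The median nuclear member in sh1 A lay 0.17 below its own mean over the 8 libraries on the log2 scale, while the medians of sh1 B and sh1 C were 0.05 and 0.10, and those of the sh3 libraries lay between -0.06 and -0.04. Library shC C was highest for 36 of the 81 (44.4%), against 18.6% of all genes. Without sh1 A, 34 members were called lower with sh3 in place of 18, and 21 were higher in sh1 than in sh3 in place of 5. How many of all genes tested were called without sh1 A was not counted, so that this rise cannot be read as particular to the members. Summed over the 81 genes, sh1 A held 288177 normalized counts, below the 306453 to 308857 of sh3 and the 325049 and 339465 of shC, while sh1 B and sh1 C held 328131 and 339465. The sh3 libraries thus lay below both controls, and the sh1 libraries lay on either side of sh3.

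**Figure D4:**
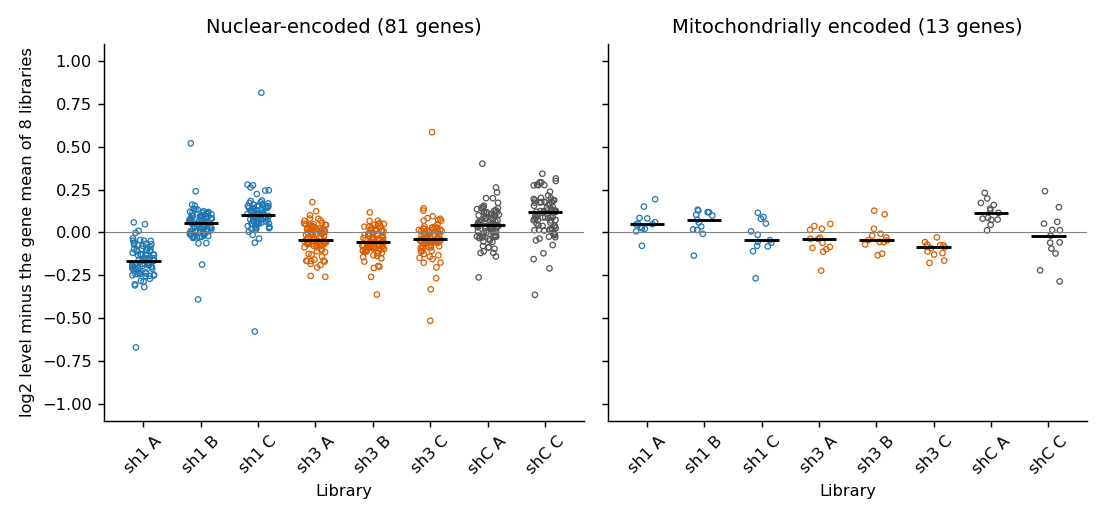
Log2 level of each gene minus its mean over the 8 libraries, for 81 nuclear genes (left) and 13 mitochondrially encoded genes (right). Black bars are medians. The nuclear genes of sh1 A centre on -0.17 and those of sh1 C on 0.10, and the mitochondrial genes do not share this shift.

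Transcript length was set beside this pattern. Lengths are medians over the annotated protein-coding transcripts of each gene, which need not be the transcripts expressed here. The nuclear members are short, with a median of 712 nt against 1816 nt for all genes tested that have a length. Among the 108 genes of all kinds up to 500 nt, the median deviation was -0.13 in sh1 A and 0.09 and 0.10 in the 2 shC libraries, and among genes over 5000 nt it was 0.05 in sh1 A and -0.07 in shC C. Between 500 and 750 nt, the sh1 A median was -0.183 for the 39 nuclear members and -0.025 for all genes. Between 750 and 1000 nt, it was -0.15 for the 17 nuclear members and -0.042 for all genes. The 7 nuclear members longer than 2000 nt by this measure had a median of -0.07 in sh1 A, against 0.03 for all genes between 2000 and 5000 nt. Whether a shift of short transcripts accounts for the calls was not tested beyond removing that trend, after which 16 members were lower with sh3, 15 of them among the 18.

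**Figure D5:**
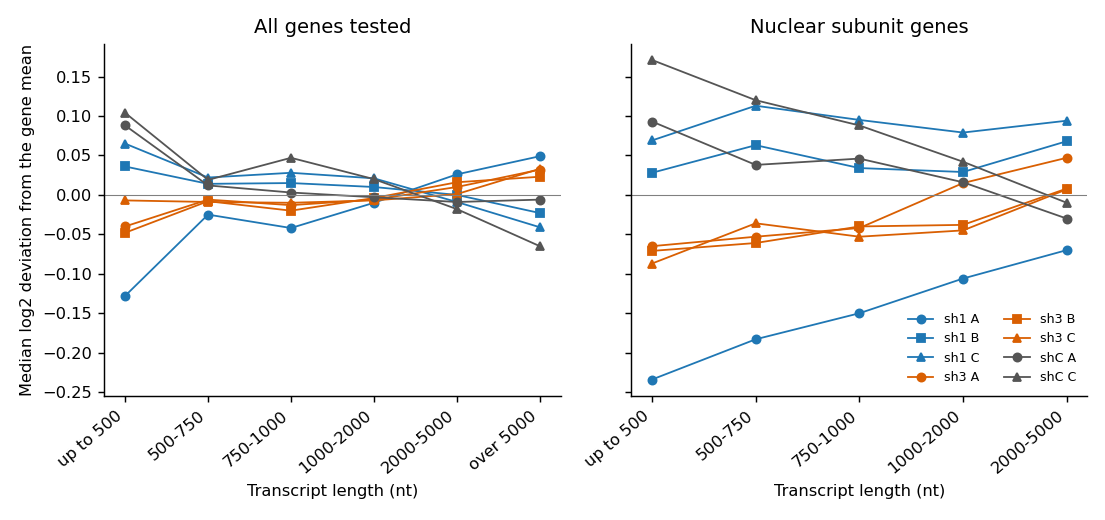
Median deviation from the gene mean (log2) by transcript length in nt, for all genes tested (left) and for the nuclear subunit genes (right), with 1 line per library. Library sh1 A lies lowest for short transcripts in both panels, from -0.13 up to 500 nt for all genes and -0.23 for nuclear subunit genes.

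Genes around the pathway were counted from lists of assembly factors, regulators and neighbours. Of all genes tested, 9.19% were called lower and 9.36% higher with sh3, and 3.43% lower and 2.88% higher with sh1. With sh3, smaller shares were called in both directions among complex IV factors, mitochondrial DNA genes, mitochondrial ribosomal proteins, TCA cycle genes and inner membrane carriers. Of 19 complex I assembly factors, 4 were lower with sh3 and none higher, among them TMEM186 (-0.43), NDUFAF8 (-0.42) and NDUFAF5 (-0.29), and TMEM186 was also lower with sh1 (-0.30). Of 6 complex III assembly factors, 2 were higher with sh3: LYRM7, which helps insert the Rieske protein, at 0.60 ± 0.12 (adjusted p = 0.00548, limma) and UQCC1 at 0.23. Of 25 genes listed as complex IV factors, COX15, an enzyme of heme A synthesis, was higher with sh3 (0.32), and COA7 (-0.37) and SLIRP (-0.31) were lower. SLIRP was counted in this list and not among the genes of mitochondrial RNA processing and decay. None of the 4 complex II and 5 ATP synthase assembly factors was called in limma with either hairpin. At an unadjusted p under 0.05 the counts were 2 for complex II with sh3 and 0 otherwise. That threshold was passed by 4505 of all 13885 genes tested with sh3. Among 5 tested subunit-like genes with symbols outside the rule, NDUFA4L2, a paralog of NDUFA4, was lower with both hairpins, from 272 ± 3.6 (SD, n = 2) in shC to 176 ± 17.1 in sh1 and 184 ± 13.0 in sh3 (n = 3 each).

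Of 16 genes of mitochondrial DNA transcription and replication, TFAM, which packages that DNA and starts its transcription, was lower with sh3 (-0.24 ± 0.059, adjusted p = 0.0184, limma), and POLG, its DNA polymerase, was higher (0.33). Of 14 genes of mitochondrial RNA processing and decay, 2 were lower with sh3, TRMT10C (-0.24) and HSD17B10 (-0.26), both subunits of the enzyme that cuts mitochondrial transcripts at the 5′ ends of tRNAs. Of 14 regulators of respiratory genes, 1 was higher and 2 were lower with sh3, and 1 was higher and 1 lower with sh1. MYC was lower with both hairpins (-0.34 with sh1 and -0.39 with sh3), PPRC1, a coactivator related to PGC-1alpha, was lower with sh3 (-0.22) and GABPB1, the partner of GABPA, was higher with sh1 (0.25). The 1 higher with sh3 was CREB1 (0.26), named after its value had been seen. Mitochondrial ribosomal proteins had 4 of 78 members higher and 4 lower with sh3, where 9.36% and 9.19% of all genes were. MRPS30 was higher with both hairpins (0.22 with sh1 and 0.33 with sh3). Of 18 TCA cycle genes, 1 was called with sh3, SUCLG2, higher by 0.41 ± 0.057 (adjusted p = 0.000796, limma). None was called with sh1, where 3 had an unadjusted p under 0.05, as did 3101 of all 13885 genes tested. Of 20 carriers of the inner membrane, SLC25A6, an ADP/ATP exchanger, was lower with sh1 (-0.22). These lists had medians between -0.18 and 0.07 with sh3, against -0.12 for the 99 members.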

How the data were processed

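Strand-specific RNA libraries of DND41 cells, 8 in all, were sequenced, per the labels. The authors deposited 1 table of signal values, counts per gene normalized across libraries. Tools named in the submitters' processing notes are kallisto 0.44.0 and DESeq, with the build hg38. No column of per-sample values was left unmapped. The annotation, and any filter before deposit, are not named. Raw counts were not used here, so the depth behind each value is unknown, and values near 10 rest on few reads.

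From these values, log2(value + 1) of 13885 genes, those averaging 10 or more over the libraries (4248 rows removed), was fitted with limma 3.58.1 in R 4.3.3, with a variance trend and 3 group means, so that the groups share an estimate of the spread. In all, 4 contrasts were taken, with 2-sided p-values adjusted by Benjamini-Hochberg over all genes and called under 0.05. The fold changes of low genes are understated on this scale. The procedure was tested on simulated data. Coordinates and transcript lengths (96 of the 99 genes) come from GENCODE 29 on GRCh38, and promoter windows from RefSeq on GRCh38.p14. Levels per kb use the median transcript length of each gene, and the minimum, sums and shares of a library are not corrected for length.

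The members, gene lists and tests were chosen with earlier results of these data known, and no p-value was adjusted over a list alone. Named were all members called in any contrast, all mitochondrial members, the most abundant member per kb of each complex, those next to the minimum, and up to 3 called genes of each list. Further members were named beside them after their values had been seen. Alternatives changed the pseudocount, the filter, the scaling, the variance trend, the libraries in the fit and the block. Values of 2 genes are not reported here.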

Additional observations from a re-analysis of the deposited data

Results flagged for a closer look

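For 5 genes the change with one SIRT1 hairpin differed from that with the other, by the test of sh1 against sh3 itself (limma, Benjamini-Hochberg over 13885 genes). In each of them, sh1 was the higher of the 2 groups, with 3 libraries each. The 5 were 5.05% of the 99 members, against 5.61% of all genes tested called higher in sh1. On the log2 scale, with SE, CYCS differed by 0.447 ± 0.0593 (adjusted p = 0.000586), MT-CO3 by 0.231 ± 0.0398 (adjusted p = 0.00322) and MT-ND1 by 0.198 ± 0.0478 (adjusted p = 0.0205). COX7A2L differed by 0.292 ± 0.0743 (adjusted p = 0.0262) and MT-CO1 by 0.172 ± 0.0484 (adjusted p = 0.0406). Of 20 alternatives, these differences were called in 20 for CYCS, 19 for MT-CO3, 15 for COX7A2L, 14 for MT-ND1 and 11 for MT-CO1. All 3 sh1 libraries lay above all 3 sh3 libraries for each of these genes. As the genes were chosen by the test on these same libraries, this separation is not further evidence.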

How the results depend on the processing

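No gene named in the report changed direction in any alternative in which its call was followed. With sh3, CYCS and MT-ND1 were called in each of 20 alternatives, and the other 17 calls were lost in at least 1. Of 5 calls between the hairpins, that of CYCS held in all 20. No call of a member with sh1, or with both hairpins together, held in all. Over the 730 values recomputed for called members and SIRT1, 151 lost their call, 99 of them with 1 library left out.

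Numbers of members called moved by more than 1.5 times as follows. With sh1, the 1 higher gene became 0 without the variance trend, with only the compared groups in the fit, with the replicate letter as a replicate block, and without sh1 A and sh3 C together; 0 lower became 1 with the replicate block and without those 2 libraries. With sh3, 18 lower became 5 without the variance trend and 30 with only the compared groups in the fit, and 1 higher became 2 at a mean of at least 50 and 3 with equal library totals. For sh1 against sh3, 5 higher became 2 with quantile normalization or no variance trend and 14 without sh1 A and sh3 C, and 0 lower became 1 at a mean of at least 50, with equal totals or with the replicate block, and 2 with the length trend removed. For both hairpins together, 8 lower became 0 and 1 higher became 0 without the variance trend, and 1 higher became 2 at a mean of at least 50, with quantile normalization, with equal totals, and without sh1 A and sh3 C. The length and 2-library alternatives were chosen after seeing the data, and the causes of these changes were not tested. Shares of all genes called were not counted in any alternative, so that these moves may not be particular to the members.

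Leaving out 1 library at a time gave 0 to 2 genes higher and 0 to 2 lower with sh1, 0 to 2 higher and 4 to 34 lower with sh3, 2 to 21 higher and 0 to 1 lower for sh1 against sh3, and 0 to 3 higher and 1 to 18 lower for both hairpins together. Shares of all genes called were not counted in these fits either. Where 1 control remained, it was assumed to vary like the other groups. With 1 library left out, the log2 ratio of the summed nuclear levels lay between -0.109 and 0.00667 for sh1 and between -0.14 and -0.0778 for sh3 against shC, and that of the mitochondrial levels between -0.0372 and 0.0959 for sh1 and between -0.149 and -0.0156 for sh3. Library letters are shared between groups, and same-lettered libraries did not deviate together, with correlations between -0.062 and 0.058 over 7 pairs. With the replicate block, 18 genes were lower with sh3, 15 of them among the 18 reported. The 2 control libraries and the unknown depth limit every comparison with shC.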
